A study of Mus musculus with 24 samples.

Results

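HL-1 cells, a beating line derived from mouse atrial cardiomyocytes, were stretched cyclically and their messenger RNA was sequenced at once. The samples described here are the 12 control libraries of a series of 24, chosen by their titles: 6 of stretched and 6 of non-stretched control cells. Control cells had been transduced for 48 h with an adenovirus that carried a scrambled hairpin, at a multiplicity of infection of 30, so stretched and non-stretched cells alike carried virus. The cells stood in serum-free medium in flexible-bottomed plates, and the stretched ones were extended by 15% for 60 min at 1 Hz, in a geometry labelled both uniaxial and biaxial. The other 12 libraries came from cells with a hairpin against MuRF1 (Trim63), a ubiquitin ligase of the sarcomere, stretched and non-stretched in the same way. The series asks which role MuRF1 has when stretch changes transcription in cardiomyocytes, and the control cells give the response without the knockdown. HL-1 is a single immortalised line, and the labels do not say that replicates were separate cultures, so p-values reflect spread among the samples at hand, and that spread may be purely technical.

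Stretch reaches the nucleus of a muscle cell by several routes. Integrins and ion channels at the membrane start MAP kinase cascades, which switch on immediate early genes such as those of the AP-1 transcription factor within minutes, and these genes include phosphatases that shut the kinases off again. Polymerising actin releases the MRTF cofactors, which act with serum response factor (SRF) at CArG boxes in the promoters of actin and adhesion genes, and the YAP cofactors act with TEAD factors on genes such as Ankrd1 and Ctgf. In the heart these programmes are known from pressure overload and hypertrophy.

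Depth was 38.0 to 54.8 M estimated counts in 11 of the control libraries and 23.6 M in stretched replicate 5. That library also stood apart in composition. Mitochondrially encoded transcripts took 1.45% of its counts against 2.49% to 3.26% in the other 11, ribosomal protein transcripts 3.43% against 4.61% to 4.98%, and histone transcripts stood at 473 against 233 to 258 counts per 1 M counts (CPM). On the first principal component of the 12 libraries, which held 29.5% of the variance, it lay at -56.75 and the others between -3.79 and 14.0. The counts of called genes over all genes and in most gene lists are therefore given with and without it.

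**Figure D1:**
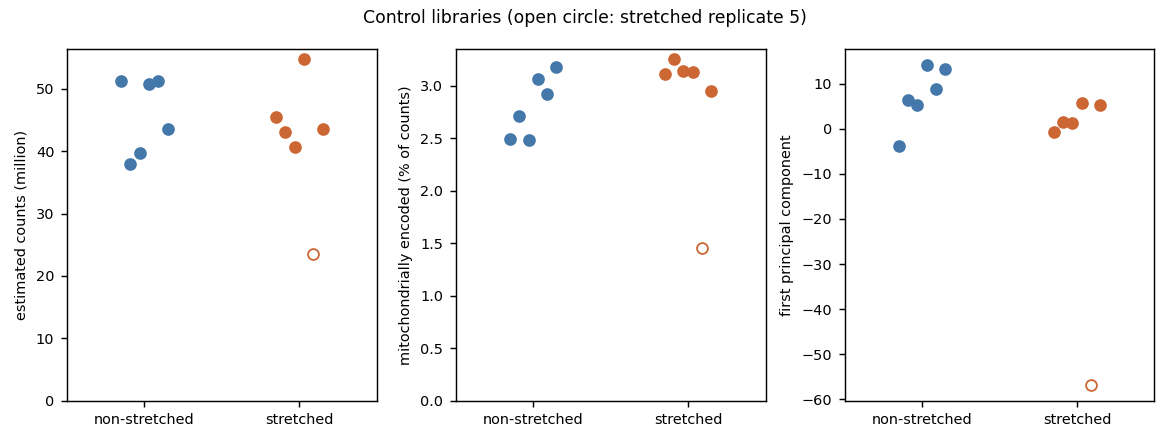
Estimated counts in M (left), share of counts from mitochondrially encoded genes in percent (middle) and first principal component of log2 CPM (right) in the 12 control libraries, by group, 1 point per library. Stretched replicate 5, drawn open, has 23.6 M counts and a mitochondrial share of 1.45%, below the other 11 libraries in all 3 panels.

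The labelled cell type was checked against 15 atrial markers, of which 14 were high enough to test. Tnnt2 (968 to 1380 CPM), Gata4 (316 to 373 CPM), Ttn (265 to 380 CPM), Ryr2 (257 to 295 CPM) and Myl7 (151 to 240 CPM) were well expressed in all 12 libraries. Some defining atrial genes were low: Nppa, the atrial natriuretic peptide, stood at 0.328 to 0.858 CPM, and Sln at 0.0244 to 0.163 CPM. Among markers of other cells, the smooth muscle actin Acta2 (2190 to 2520 CPM) and the fibroblast collagen Col1a1 (119 to 150 CPM) were high, while endothelial Erg and macrophage C1qa were at 0 in every control library. The 8 endothelial markers summed to 8.75 to 10.2 CPM in stretched and 9.23 to 10.1 CPM in non-stretched libraries, and the macrophage markers to 2.32 to 3.92 and 1.75 to 2.22 CPM. Of 9 macrophage markers only 3 were high enough to test, and none stood above 2.92 CPM in any control library. Of these 3, 2 rose with or without replicate 5 (66.7%, against 2.55% of all tested genes and 5.68% without replicate 5). Cd68 went from a median of 1.36 to 2.23 CPM and Itgam from 0.126 to 0.252 CPM (log2 fold changes 0.66 and 1.03, edgeR's adjusted p = 0.00349 and 0.0305). The call of Itgam was lost for 6 of the 12 control libraries when each was left out.

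Trim63, the target of the other virus, was present in all control libraries, at 536 to 707 CPM (median 641) without stretch and 687 to 882 CPM (median 783) with it. Its mean log2 level was 0.288 higher with stretch (two-sided exact permutation test, p = 0.0173). The highest non-stretched libraries overlapped the lowest stretched ones.

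Many genes differed by small amounts between control cells stretched for 60 min and non-stretched ones. The library codes hold a number of unknown meaning that differs between the groups and is the same within each. If it marks a batch, batch and stretch cannot be told apart. In edgeR's quasi-likelihood test, 857 of 14411 genes passed an adjusted p of 0.05 (5.95%), 368 of them higher (2.55%) and 489 lower (3.39%). Without replicate 5 the same test called 2023 of 14466 genes (14.0%), 822 higher (5.68%) and 1201 lower (8.30%). Both analyses called 831 genes in the same direction, 348 up and 483 down, and 26 genes were called only with replicate 5. Rises were larger than falls: the median log2 fold change was 0.22 in the 348 and -0.18 in the 483. More than 1.2-fold changes numbered 137 up and 70 down, and 65 genes rose more than 1.5-fold. Wnt9a, Isl2 and Tstd1, a gene at under 1 CPM that was picked out after its values were seen, were the 3 that fell by as much. The groups did not overlap, all 6 stretched libraries lying above or below all 6 others, for 148 of the 348 and 213 of the 483, while over all tested genes 1.16% lay fully above and 2.03% fully below. Without replicate 5 these were 224 and 357, against 3.37% and 6.26%.

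The number of falls depended on single libraries and on scaling. It was 310 without stretched replicate 1, 306 without stretched replicate 3 and 325 without non-stretched replicate 4. Of the 122 called genes named here, 90 kept their call whichever of the 12 control libraries was left out, 13 lost it for 1 to 5 of them and 19 for 6 or more. Those 19 were Fzd2, Isl2, Uqcrc1, Edem1, Egr4, Adamts1, Cpt2, Irx5, Vegfb, Bhlhe40, Fbxo21, Fbxo32, Ier3, Tnfaip2, Dusp5, Itga9, Itgam, Meis2 and Tbx18. Adgrg1, Gys1, Id3, Myc, Pfkl and Srsf6 lost it for 5, Nid2 and Tmie for 4, Nfkb2, Slfn1 and Zeb1 for 2, and Hcn4 and Trim63 for 1. With the spread taken from the control libraries alone, 377 genes passed, 222 up and 155 down. Offsets for GC content and transcript length gave 411 rises and 887 falls, so that 31.7% of the calls were rises, against 42.9% without them. The 348 genes that rose had a median GC content of 50.0%, the 483 that fell 55.1%, and all tested genes with annotation 51.0%. Called genes were also shorter along the genome, with a median span of 16.0 kb for rises and 19.4 kb for falls against 23.2 kb.

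**Figure D2:**
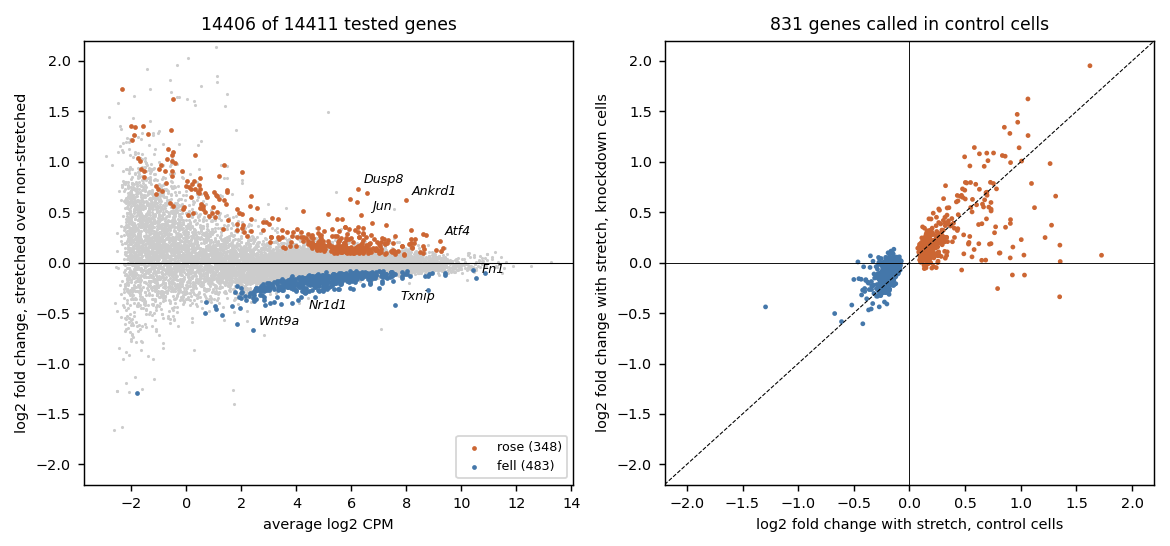
Left, log2 fold change of stretched over non-stretched control cells against average log2 CPM, 1 point per gene, with the 348 genes that rose (orange) and the 483 that fell (blue) with and without stretched replicate 5, and 5 uncalled genes beyond the axis left out. Right, the log2 fold changes of those 831 genes with stretch in control cells (x) and in knockdown cells (y), with the line of equal response dashed. Most genes lie within 0.5 of 0, rises reach further than falls, and most points lie in the quadrants where both kinds of cell moved the same way.

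Part of the AP-1 family rose. Of 13 tested subunits and relatives, 6 rose (46.2%) and none fell, with or without replicate 5. The list's median log2 fold change was 0.15 against -0.01 for all genes. For this and all later lists, the shares of all genes were 2.55% up and 3.39% down, and 5.68% and 8.30% without replicate 5. Jun, the subunit that stress kinases phosphorylate, stood at 46.1 to 72.7 CPM (median 57.5) without stretch and at 82.8 to 114 CPM (median 91.0) with it, a log2 difference of 0.69 (SE 0.105, edgeR's adjusted p = 0.000344). Every stretched library lay above every non-stretched one, and replicate 5 was the highest. Atf3, a stress-induced partner of Jun, went from 25.3 to 40.7 CPM (median 36.4) to 45.6 to 57.8 CPM (median 53.5), by 0.60 (SE 0.0774, adjusted p = 3.83e-05), again with no overlap. Fosl2, the gene of the Fos-related subunit Fra-2, had one of the smallest p-values of all genes. It rose from 72.6 to 83.6 CPM (median 76.9) to 95.0 to 105 CPM (median 99.5), by 0.35 (SE 0.0365, adjusted p = 1.28e-06). Jund, a subunit that many resting cells hold, rose by 0.32 (adjusted p = 8.63e-05), and the small Maf genes Maff and Mafk by 0.15 and 0.14 (adjusted p = 0.00263 and 0.00363).

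Fos itself, the classical early gene, did not pass. Its level was 13.4 to 34.2 CPM (median 23.6) without and 15.4 to 21.7 CPM (median 18.1) with stretch, which differed by -0.36 (log2; SE 0.212, adjusted p = 0.355). Egr1, an early zinc finger factor, was at 91.6 to 239 CPM (median 167) and 71.2 to 131 CPM (median 104), a difference of -0.65 (SE 0.241, adjusted p = 0.115). In both genes the stretched values lay within or below the wide non-stretched range. Fosb (0.17, adjusted p = 0.698), Junb (-0.07, adjusted p = 0.627) and Ier2 (-0.13, adjusted p = 0.597) likewise did not pass. Of the 9 genes of the Egr, Nr4a and Nab families, Egr4 alone rose, at 0.8 to 1.3 CPM without and 1.16 to 2.15 CPM with stretch, and its call was lost without replicate 5 (adjusted p = 0.0505).

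**Figure D3:**
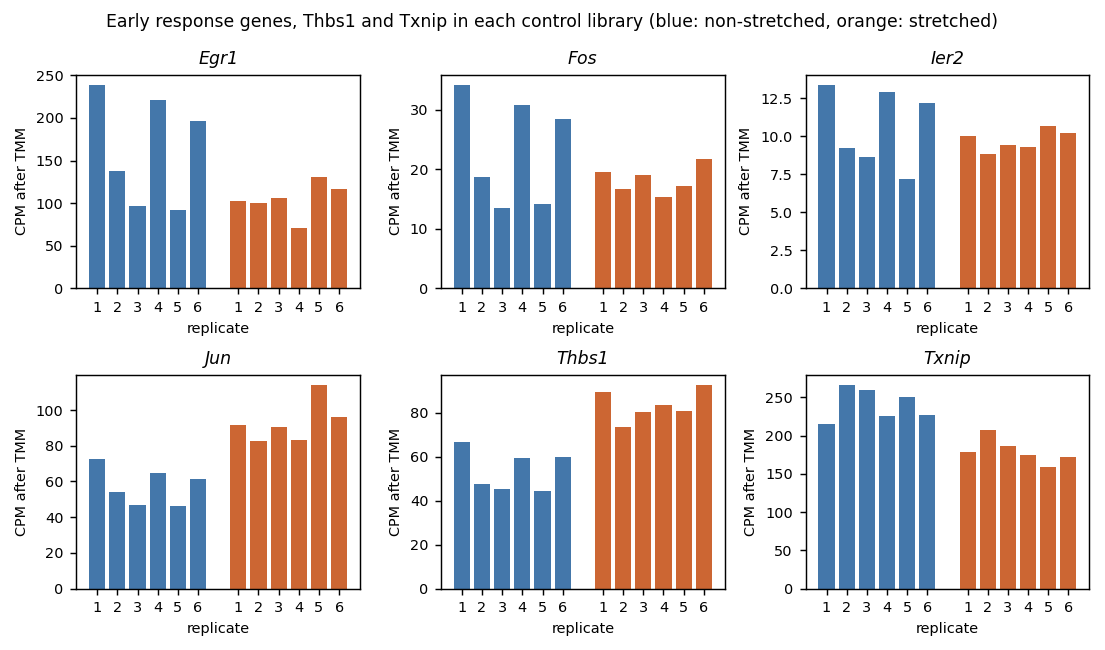
CPM after TMM scaling of Egr1, Fos, Ier2, Jun, Thbs1 and Txnip in each of the 6 non-stretched (blue) and 6 stretched (orange) control libraries, 1 bar per library, by replicate number. Egr1 runs from 91.6 to 239 CPM without stretch and from 71.2 to 131 CPM with it, and the non-stretched libraries hold nearly the same order for Egr1, Fos, Ier2, Jun and Thbs1.

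Egr1, Fos and Ier2 spread widely over the non-stretched libraries. Egr1 stood at 239, 138, 96.5, 221, 91.6 and 196 CPM in non-stretched replicates 1 to 6, and at 103, 99.6, 106, 71.2, 131 and 116 CPM in the stretched ones. Fos gave 34.2, 18.7, 13.4, 30.8, 14.1 and 28.5 CPM without stretch, in nearly the same order. Ier2, Fosb, Jun and Junb were also highest in replicates 1 and 4 of the non-stretched group and lowest in replicate 5, and Txnip, described below, was lowest in replicate 1. Over 102 tested members of the 5 early response lists, the median SD of log2 CPM was 0.10 without stretch, 0.10 in the 6 stretched libraries and 0.08 in these without replicate 5, against 0.08, 0.12 and 0.07 over all tested genes. Non-stretched replicates 1, 4 and 6 were the 3 highest for 29 of the 102 (28.4%, against 4.12% of all tested genes) and the 3 lowest for 4 (3.92% against 4.26%). These are the libraries that were highest for Egr1 and Fos, which are themselves among the 29, so the count describes an order and tests nothing. The 29 include Jun, Dusp1, Dusp5, Ccnl1, Klf6 and Ier3, which rose with stretch. Outside these lists the order also held for Thbs1 and Ctgf.

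Several phosphatases that switch off MAP kinases rose. Of 20 tested feedback inhibitors 5 rose and none fell (6 rose and 1 fell without replicate 5). The list as a whole did not shift. Its median log2 fold change was -0.004 (-0.003 without replicate 5) against -0.01 for all genes, and 9 of the 20 were positive. Dusp8, which acts on the stress kinases JNK and p38, had the smallest p of all genes. It rose from 40.3 to 55.2 CPM (median 46.4) to 71.6 to 88.8 CPM (median 77.0), by 0.73 in log2 units (SE 0.0578, adjusted p = 2.13e-08), and without replicate 5, its highest library, by 0.69. The groups lay far apart. Dusp16, a JNK phosphatase, rose by 0.43 (30.4 to 33.4 CPM against 37.1 to 47.3 CPM, adjusted p = 2.25e-05) and Dusp10, which acts on p38 and JNK, by 0.24 (adjusted p = 0.00474), both with no overlap. Dusp1 rose by 0.34 (adjusted p = 0.0170) and Dusp5 by 0.31 (adjusted p = 0.0345), with overlapping libraries. For Dusp6, the cytoplasmic ERK phosphatase, the difference was -0.14 (adjusted p = 0.154), and for Spry2 it was -0.12 (adjusted p = 0.0779; -0.15 and adjusted p = 0.00868 without replicate 5).

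Further early genes moved in both directions. Of 46 other immediate early genes 12 rose (26.1%) and 3 fell (6.52%), against 2.55% and 3.39% of all genes. Without replicate 5, 15 rose (32.6% against 5.68%) and 4 fell (8.7%, near the 8.30% of all genes). Ccnl1, a cyclin of the splicing machinery, rose by 0.48 (24.7 to 34.9 CPM against 36.1 to 43.3 CPM, adjusted p = 0.000589), Mcl1, a survival factor of the Bcl-2 family, by 0.17 (adjusted p = 0.00102), and Myc by 0.32 (adjusted p = 0.0253). Nfil3, a bZIP repressor, rose from 14.0 to 17.4 CPM to 18.3 to 21.2 CPM, by 0.28 (adjusted p = 0.00114). The falls were Pim1, Id3 and Bhlhe40. Pim1, a serine kinase, went from 54.6 to 57.1 CPM (median 55.5) to 44.6 to 54.0 CPM (median 45.3), by -0.26 (adjusted p = 0.000257). Its 5 other stretched libraries lay close together and replicate 5 alone was near the non-stretched range. Among 14 Kruppel-like factors, Klf6 (0.32, adjusted p = 0.000868), Klf7 (0.17, adjusted p = 0.0115) and Klf9 (0.16, adjusted p = 0.0151) rose and none fell (3 and 2 without replicate 5), and Klf4 did not pass (0.07, adjusted p = 0.355).

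Some targets and cofactors of SRF rose, and so did SRF's own gene. Of 31 tested targets and cofactors 9 rose and none fell, and without replicate 5 18 rose and none fell, with a list median of 0.11 (0.12 without). Srf went from 136 to 166 CPM (median 143) to 182 to 206 CPM (median 187), by 0.37 (SE 0.0447, adjusted p = 7.27e-06). Actc1, the cardiac actin of the thin filament, went from 79.6 to 118 CPM (median 92.9) to 120 to 144 CPM (median 132), by 0.48 (SE 0.068, adjusted p = 0.000117). Fhl2, a LIM-domain protein of the sarcomere and a cofactor of SRF, rose by 0.35 (56.2 to 66.0 CPM against 72.9 to 85.6 CPM, adjusted p = 2e-05). None of these 3 overlapped between groups. Lima1, an actin-bundling protein named by its small p and not a member of the list, rose by 0.24 (123 to 130 CPM against 137 to 153 CPM, adjusted p = 2.92e-06). Tgfb1i1 (0.24), Wdr1 (0.14), Vcl (0.12), the adhesion protein vinculin, and Tpm1 (0.14), a tropomyosin, rose less. Replicate 5 was the lowest stretched library for Lima1 and for Vcl, at 567 CPM against 628 to 641 CPM in the other 5. The smooth muscle actin Acta2 (0.09, adjusted p = 0.0848) and skeletal actin Acta1 (0.33, adjusted p = 0.0731) did not pass, but did without replicate 5 (adjusted p = 0.00277 and 0.0309) and in DESeq2.

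Promoters of these genes were read for the binding site of SRF and for 4 other short motifs. In a RefSeq table of promoters on GRCm38.p6, from 250 bases before to 50 bases after the start, 286 of the 348 genes that rose were matched by symbol or synonym. A CArG box stood in 18 of the 286 (6.29%), and in 535 of all 32851 promoters of the table (1.63%). The motif TGACGTCA, read by CREB and ATF factors and by Jun with ATF partners, stood in 18 of the 286 as well (6.29%), and in 1.79% of the table. TGACTCA, the AP-1 site, stood in 10 of the 286 (3.50% against 5.20% of the table), CACGTG in 12.2% against 7.15%, and TGATGNAAN, which covers many C/EBP-ATF sites, in 4.2% against 3.95%. All were searched on both strands. Of the genes that fell and of all tested genes, only 370 of 483 and 10820 of 14411 were matched, under the 80% needed for a comparison, so the check against those is void. In the matched tested genes the shares were 1.68% for the CArG box, 3.34% for TGACGTCA and 11.3% for CACGTG. A gene counts if any of its listed promoters holds the motif, whereas the table's shares are over single promoters, so the shares of genes and of the table are not alike in kind. A match is a description and shows no binding. The 130 bases before the start are printed for the 5 named genes with the smallest p that rose and hold a CArG box or TGACGTCA there, 5′ to 3′ on the gene's strand, with these motifs in capitals. All 5 lie on the minus strand, and Fhl2 is printed for both of its listed starts that hold a box. The starts are those of the RefSeq table. For Dusp8 the GENCODE span given below begins further upstream, so its window lies within that annotated gene. Dusp8 (chr7:142095285-142095414) holds TGACGTCA at 2 places, Srf (chr17:46556163-46556292) holds 2 CArG boxes, and Lima1 (chr15:99820150-99820279), Fhl2 (chr1:43196762-43196891 and chr1:43163962-43164091) and Actc1 (chr2:114052876-114053005) hold 1 in each window.
Dusp8: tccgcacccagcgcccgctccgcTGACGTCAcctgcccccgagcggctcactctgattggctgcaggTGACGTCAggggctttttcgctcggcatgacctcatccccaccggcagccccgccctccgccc
Srf: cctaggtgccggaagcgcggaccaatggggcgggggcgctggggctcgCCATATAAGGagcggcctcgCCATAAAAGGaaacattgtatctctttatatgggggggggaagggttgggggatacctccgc
Lima1: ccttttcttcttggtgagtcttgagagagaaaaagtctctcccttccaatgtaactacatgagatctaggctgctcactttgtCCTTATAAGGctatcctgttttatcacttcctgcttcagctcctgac
Fhl2 upstream start: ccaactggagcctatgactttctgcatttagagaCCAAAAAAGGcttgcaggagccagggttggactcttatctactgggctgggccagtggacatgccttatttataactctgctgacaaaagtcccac
Fhl2 downstream start: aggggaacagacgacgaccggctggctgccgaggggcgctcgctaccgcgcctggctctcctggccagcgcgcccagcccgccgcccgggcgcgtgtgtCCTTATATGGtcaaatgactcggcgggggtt
Actc1: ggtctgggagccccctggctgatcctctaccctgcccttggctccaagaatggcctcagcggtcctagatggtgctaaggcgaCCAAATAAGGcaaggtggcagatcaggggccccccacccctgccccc
The boxes of Actc1 and Lima1 both begin at base -47 from the start and those of Srf at -82 and -62, and the 2 TGACGTCA motifs of Dusp8 begin at -107 and -63.

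**Figure D4:**
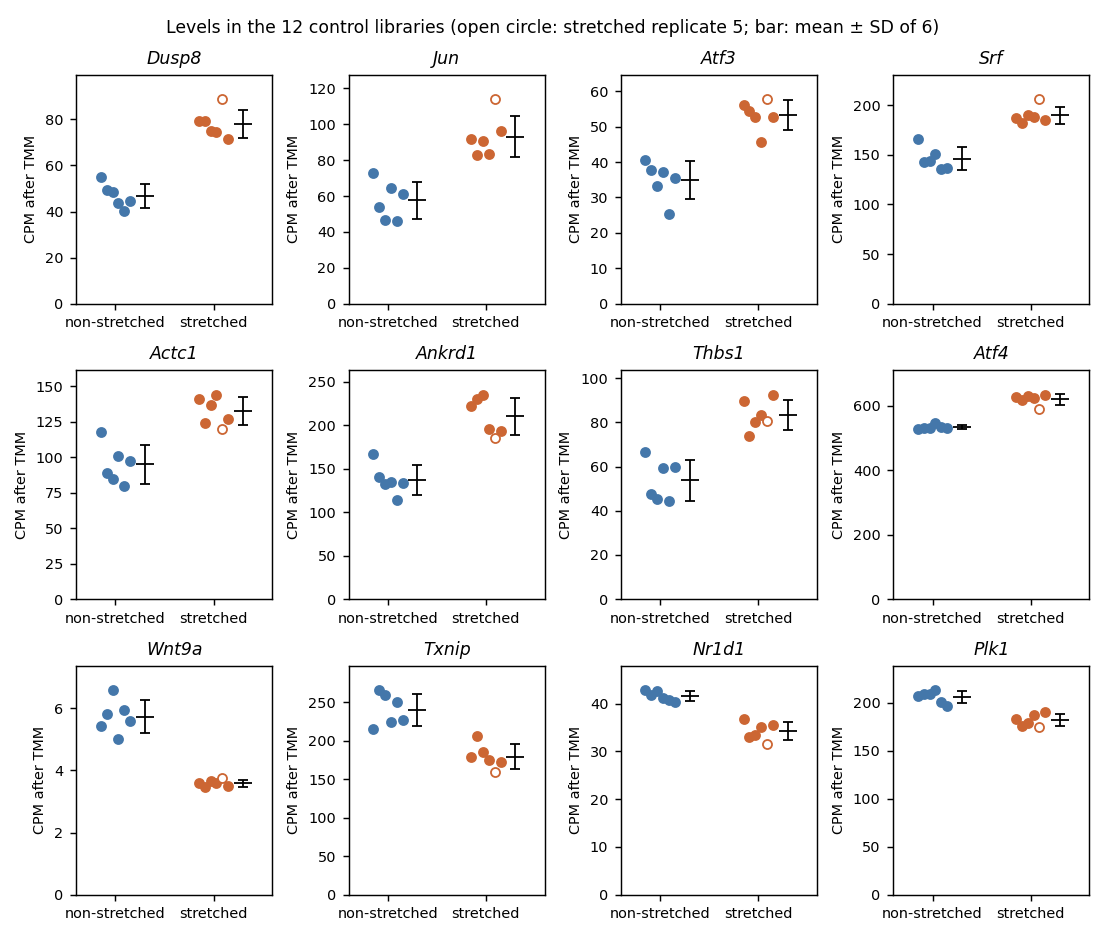
CPM after TMM scaling of 12 named genes in the 6 non-stretched (blue) and 6 stretched (orange) control libraries, 1 point per library, with the mean and SD of each group beside the points and stretched replicate 5 drawn open. All 12 genes are separated between the groups, and replicate 5 is the highest stretched library for Dusp8, Jun, Atf3, Srf and Wnt9a and the lowest for Actc1, Ankrd1, Atf4, Txnip, Nr1d1 and Plk1.

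Among targets of YAP and TEAD and markers of stretch, the rises were led by Ankrd1 and matricellular genes. Of 27 YAP and TEAD targets and partners 4 rose and none fell (6 and 2 without replicate 5). The list's median was 0.01 (0.002 without replicate 5), near the -0.01 of all genes. Of 19 tested stretch and hypertrophy markers 2 rose (10.5%) and 1 fell (5.26%), and without replicate 5 3 rose (15.8%) and 2 fell (10.5%). Ankrd1, a titin-linked ankyrin repeat protein that moves to the nucleus, went from 114 to 167 CPM (median 134) to 185 to 235 CPM (median 209), by 0.62 (SE 0.0679, adjusted p = 3.21e-06), with no overlap. Ctgf, a matricellular growth factor, rose by 0.40 (49.2 to 84.4 CPM against 75.1 to 94.2 CPM, adjusted p = 0.0190), and Amotl2, an angiomotin that restrains YAP, by 0.19 (adjusted p = 0.00483). F3, tissue factor, rose by 0.21 (adjusted p = 0.00469). Cyr61, a CCN gene like Ctgf, was at 111 to 279 CPM and 175 to 236 CPM, a difference of 0.19 within its spread (adjusted p = 0.585). Thrombospondin 1 (Thbs1), a matricellular glycoprotein, went from 44.2 to 66.7 CPM (median 53.6) to 73.6 to 92.5 CPM (median 81.8), by 0.63 (SE 0.0874, adjusted p = 0.000112), again with no overlap. The stress cytokine Gdf15 rose by 0.25 (52.8 to 69.2 CPM against 69.3 to 78.2 CPM, adjusted p = 0.00814). The hypertrophy marker Nppa stood below 1 CPM in all control libraries (0.25, adjusted p = 0.591).

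Matrix genes moved in both directions. In the list of 50 thrombospondin, CCN and matrix genes 3 rose (Thbs1, Ctgf and Adamts1) and 4 fell (Fn1, Col1a1, Lamc1 and Nid2). These were 6% and 8%, against 2.55% and 3.39% of all genes. Without replicate 5 3 rose (6%, near the 5.68% of all genes) and 11 fell (22% against 8.30%). Fibronectin (Fn1), a protein that the labels also list as a culture coating, went from 1930 to 2030 CPM (median 1970) to 1710 to 1880 CPM (median 1770), by -0.15 (SE 0.0347, adjusted p = 0.00922), with no overlap. Col1a1, a chain of type I collagen, fell by 0.17 (141 to 150 CPM against 119 to 143 CPM, adjusted p = 0.0144), with replicate 5 the only stretched library in the non-stretched range. The 8 fibroblast markers, Col1a1 among them, summed to 216 to 243 CPM with and 244 to 250 CPM without stretch, so the sum includes the fall of Col1a1 itself. Of the 6 tested markers Col1a1 alone fell and none rose, with or without replicate 5 (16.7%, against 3.39% and 8.30% of all genes). The part of the other markers in the collagen result was not tested. The growth factor genes Tgfb1 (-0.17, adjusted p = 0.0147), Tgfa (-0.17, adjusted p = 0.00933) and Vegfb (-0.11, adjusted p = 0.0390) fell with no overlap between groups, while Fgf16, a heart-expressed fibroblast growth factor, rose by 0.18 (26.6 to 28.6 CPM against 29.3 to 34.1 CPM, adjusted p = 0.00466). Tgfbr1, a TGF-beta receptor, rose by 0.22 (adjusted p = 0.0111).

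Genes of the integrated stress response, which ATF4 leads when translation is slowed, rose without an opposite call. Of 33 tested genes 7 rose and none fell, 10 and none without replicate 5, with a median of 0.06. Atf4 went from 526 to 547 CPM (median 532) to 588 to 634 CPM (median 626), by 0.22 (SE 0.025, adjusted p = 4.71e-06), a change of small size whose groups lay clearly apart. Sesn2, a sestrin that restrains mTORC1, rose by 0.34 (53.2 to 64.6 CPM against 67.6 to 93.2 CPM, adjusted p = 0.000822), and by 0.27 without replicate 5, which was its highest library. Herpud1, a protein of ER-associated degradation, rose by 0.17 (adjusted p = 0.000595). In the separate list of 26 genes of the unfolded protein response and ER folding, Herpud1 rose and Edem1 fell. This was 3.85% each way, near the 2.55% and 3.39% of all genes. Without replicate 5, 2 rose (7.69% against 5.68%) and none fell. The chaperone Hspa5 differed by 0.00 (adjusted p = 0.961). Impact, an inhibitor of the kinase GCN2 upstream of ATF4, rose by 0.31 (36.6 to 40.6 CPM against 47.7 to 48.9 CPM, adjusted p = 8.41e-07), and Mat2a, which makes the methyl donor S-adenosylmethionine, by 0.27 (374 to 400 CPM against 459 to 472 CPM, adjusted p = 5.35e-07). Both were named by their small p, and in both the stretched libraries lay within a narrow band above all others.

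Other protective genes gave few calls with all libraries. Hmox1, heme oxygenase, rose by 0.18 (90.5 to 93.7 CPM against 99.9 to 109 CPM, edgeR's adjusted p = 0.000167). Of 32 NRF2 and antioxidant genes 2 rose (6.25%) and 1 fell (3.12%), and without replicate 5 6 rose (18.8% against 5.68% of all genes) and 1 fell. Of 32 heat shock proteins and cochaperones 2 rose (6.25%) and 1 fell (3.12%), and without replicate 5 4 rose (12.5% against 5.68%) and none fell. Dnajb4, a cochaperone, rose by 0.34 (49.5 to 57.7 CPM against 51.5 to 71.1 CPM, adjusted p = 0.000430), with replicate 5 alone in the non-stretched range, and by 0.39 without it. The heat-inducible Hspa1a did not pass (-0.07, adjusted p = 0.664). Of 39 regulators of mRNA decay and splicing 5 rose (12.8%) and 1 fell (2.56%). Without replicate 5 14 rose (35.9%) and 3 fell (7.69%, near the 8.30% of all genes). Among them were the SR protein genes Srsf2 (0.14 with all libraries, adjusted p = 0.00620) and Srsf6 (0.19, adjusted p = 0.0233) as rises. The kinase Clk2 was a fall (-0.27, adjusted p = 0.0176).

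**Figure D5:**
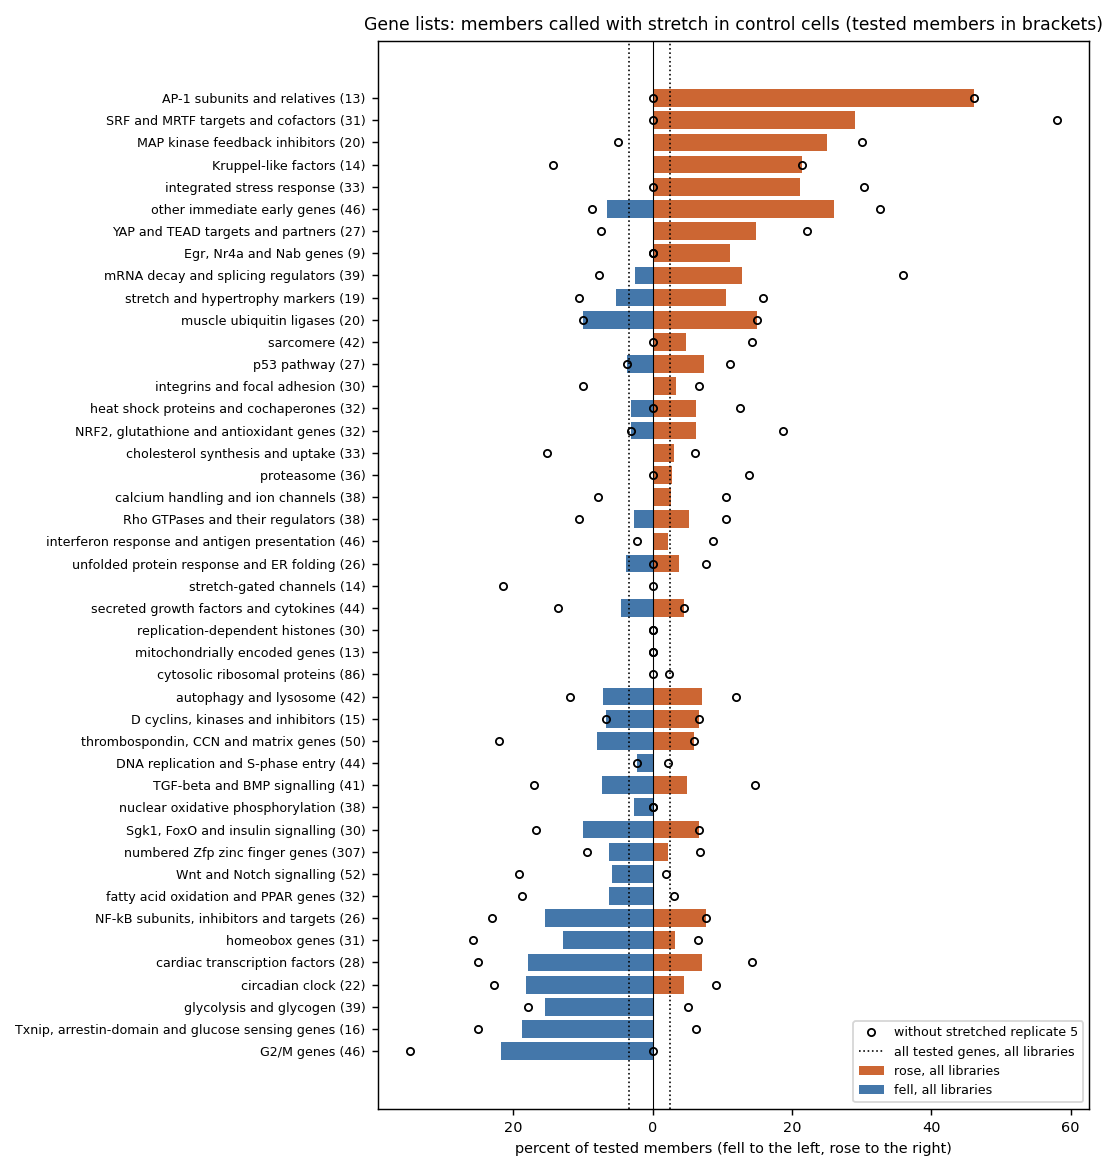
Share of the tested members of the gene lists that rose (orange bars, right) or fell (blue bars, left) with stretch in control cells, in percent, with all libraries, and the same without stretched replicate 5 (open circles). Dotted lines mark the shares over all tested genes with all libraries, 2.55% and 3.39%, and apply to the bars only. The shares that apply to the circles, 5.68% and 8.30%, are not drawn. Lists of cell type markers are not drawn. Among the lists drawn, the bar of the AP-1 list, 6 of 13, reaches furthest to the right and that of the G2/M list, 10 of 46, furthest to the left.

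Wnt9a had the smallest p among the falls. Wnt9a, a secreted Wnt ligand, went from 5.02 to 6.58 CPM (median 5.70) to 3.45 to 3.76 CPM (median 3.61), by -0.67 (SE 0.0704, adjusted p = 1.41e-06). Its 6 stretched libraries lay close together and below all others. Of 52 Wnt and Notch genes 3 fell (Wnt9a, Frat1 and Fzd2) and none rose, and without replicate 5 10 fell and 1 rose. Frat1, a GSK3-binding activator of Wnt signalling, fell by 0.43 (adjusted p = 0.0142). The Wnt target Axin2 differed by -0.08 (adjusted p = 0.443).

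Txnip, an arrestin-like protein that binds thioredoxin and restrains glucose uptake, went from 215 to 266 CPM (median 238) to 159 to 207 CPM (median 177), by -0.42 (SE 0.0585, adjusted p = 8.63e-05). Arrdc4, its closest relative and also a target of the glucose-sensing Mondo factors, fell by 0.34 (26.9 to 32.4 CPM against 19.5 to 25.2 CPM, adjusted p = 0.000403), and Arrdc2 by 0.40 (11.7 to 13.4 CPM against 8.38 to 10.5 CPM, adjusted p = 0.000785). None of the 3 overlapped between groups. They were the calls in a list of 16 (4 fell and 1 rose without replicate 5). Of 39 genes of glycolysis and glycogen 6 fell and none rose (7 and 2 without replicate 5): the lactate carrier Slc16a3 (-0.16, adjusted p = 0.00334), hexokinase Hk1 (-0.14, adjusted p = 0.00370), the pyruvate dehydrogenase kinases Pdk4 (-0.21, adjusted p = 0.00411) and Pdk2 (-0.25, adjusted p = 0.00434), Gys1 and Pfkl. The inducible hexokinase Hk2 differed by 0.07 (adjusted p = 0.426). Fatty acid oxidation gave 2 falls of 32 (6.25% against 3.39% of all genes), Pdk4 again and Cpt2 at -0.14. Without replicate 5 it gave 6 falls (18.8% against 8.30%) and 1 rise (3.12% against 5.68%). Oxidative phosphorylation gave 1 fall of 38, a share of 2.63% under the 3.39% of all genes (Uqcrc1, -0.09, adjusted p = 0.0487, lost without replicate 5).

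Transcription factors of development and identity gave falls and rises. Of 31 homeobox genes 4 fell (12.9%) and 1 rose (3.23%), against 3.39% and 2.55% of all genes, with a median of -0.09. Without replicate 5, 8 fell (25.8% against 8.30%) and 2 rose (6.45%, near the 5.68% of all genes). Hoxa3 (-0.52, adjusted p = 0.00751), Isl2 (-0.61, adjusted p = 0.0412) and Tgif2 (-0.19, adjusted p = 0.00176) were among the falls, and Zeb1 rose by 0.13 (adjusted p = 0.0251). Among 28 cardiac transcription factors 5 fell (17.9%) and 2 rose (7.14%), and without replicate 5 7 fell (25%) and 4 rose (14.3%). Gata5 fell by 0.34 (9.31 to 11.4 CPM against 7.08 to 9.08 CPM, adjusted p = 0.00298), Nr2f2, an atrial identity factor, by 0.13 (99.4 to 109 CPM against 92.1 to 97.4 CPM, adjusted p = 0.0142), and Hand2 by 0.13 (adjusted p = 0.0147), with Irx5 and Isl2 as the others. Meis2 (0.10, adjusted p = 0.0267) and Tbx18 were the rises. Gata4 did not pass, but did without replicate 5, its highest library at 373 CPM (-0.11, adjusted p = 0.0119, against -0.07 with it), and Nkx2-5 did not pass (0.08, adjusted p = 0.216). Of 307 numbered Zfp genes 19 fell (6.19%, against 3.39% of all genes) and 7 rose (2.28% against 2.55%). Without replicate 5 29 fell (9.45% against 8.30%) and 21 rose (6.84% against 5.68%), shares near those of all genes. Zfp568, a KRAB repressor, was the rise with the smallest p (60.3 to 68.9 CPM against 77.6 to 85.7 CPM, 0.30, adjusted p = 2.92e-06) and Zfp318 the fall (37.5 to 40.7 CPM against 30.5 to 34.9 CPM, -0.24, adjusted p = 0.000119).

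Circadian and NF-kB genes moved in both directions. Of 22 clock genes 4 fell (18.2%) and 1 rose (4.55%), against 3.39% and 2.55% of all genes. Without replicate 5, 5 fell (22.7% against 8.30%) and 2 rose (9.09% against 5.68%). The repressor Nr1d1 (REV-ERB alpha) went from 40.4 to 42.8 CPM (median 41.5) to 31.6 to 36.7 CPM (median 34.3), by -0.28 (SE 0.0411, adjusted p = 0.000131). Per3 and Dbp, which share its control by E-box factors, fell by 0.27 (adjusted p = 0.0109) and 0.28 (adjusted p = 0.0111), and Nfil3, which opposes Dbp at the same sites, was the rise. Of 26 NF-kB genes 4 fell (15.4%) and 2 rose (7.69%). Without replicate 5, 6 fell (23.1% against 8.30% of all genes) and 2 rose (7.69% against 5.68%). The inhibitor gene Nfkbie fell by 0.37 (16.1 to 19.1 CPM against 12.5 to 14.9 CPM, adjusted p = 2.71e-05), Tnip1 by 0.15 (adjusted p = 0.0138) and Nfkb2 by 0.14 (adjusted p = 0.0213), with Tnfaip2 as the fourth, whereas the nuclear inhibitor Nfkbiz rose by 0.29 (adjusted p = 0.000773), as did Ier3. Nfkbia, the usual early target, did not pass (0.06, adjusted p = 0.373). Bmf, a pro-apoptotic protein held by the cytoskeleton, fell by 0.41 (16.4 to 19.5 CPM against 11.5 to 15.7 CPM, adjusted p = 0.000391), and Gypc, a membrane glycophorin, by 0.27 (27.5 to 29.8 CPM against 23.5 to 24.9 CPM, adjusted p = 5.03e-06).

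Mitotic genes fell by small amounts. Of 46 G2/M genes 10 fell and none rose, and without replicate 5 16 fell and none rose, with a list median of -0.06 (-0.04 without). Plk1, the mitotic polo kinase, went from 196 to 213 CPM (median 208) to 175 to 190 CPM (median 181), by -0.18 (SE 0.0306, adjusted p = 0.000654), with no overlap. Cdc20, an activator of the anaphase-promoting complex, went from 267 to 285 CPM to 244 to 261 CPM, by -0.12 (adjusted p = 0.0151), also with no overlap. Troap fell by 0.18 (adjusted p = 0.00485) and Dlgap5 by 0.14 (adjusted p = 0.0128). With only the control libraries in the fit 1 member of the list passed. Genes of DNA replication gave 1 fall of 44, Pold1 (-0.20, adjusted p = 0.00878), a share of 2.27% under the 3.39% of all genes. Without replicate 5 they gave 1 fall and 1 rise, 2.27% each, under the 8.30% and 5.68% of all genes. The inhibitor Cdkn1a (p21) rose by 0.14 (adjusted p = 0.0109). In bulk RNA, fewer cells in mitosis and less of these transcripts per cell cannot be told apart.

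Of 20 muscle ubiquitin ligases, the family of MuRF1, 3 were called up (15%) and 2 down (10%), with or without replicate 5. The shares of all genes were 2.55% and 3.39%, and 5.68% and 8.30% without replicate 5. Without it the share of falls was thus near that of all genes. Trim63 rose by 0.29 (SE 0.0718, adjusted p = 0.0174), Asb2, a ligase of filamins, by 0.21 (adjusted p = 0.0147) and Fbxl22, which acts on alpha-actinin, by 0.32 (7.60 to 9.61 CPM against 9.56 to 11.6 CPM, adjusted p = 0.00223). Fbxo32 (atrogin-1), the usual partner of MuRF1 in atrophy, fell by 0.15 (41.1 to 46.7 CPM against 34.8 to 42.6 CPM, adjusted p = 0.0445), and Fbxo21 by 0.13 (adjusted p = 0.0337). The call of Trim63 was lost without stretched replicate 1 (adjusted p = 0.0526) and within each code letter, described below. Neither fall was called with RLE factors, with a minimum count of 50 or with the control libraries alone, nor without stretched replicate 1, 2 or 3 or non-stretched replicate 4 or 5, where the adjusted p reached 0.121 for Fbxo32 and 0.0853 for Fbxo21.

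Several other lists gave few calls. The sarcomere list had 2 rises of 42, Actc1 and Tpm1 (4.76% against 2.55% of all genes), and 6 without replicate 5 (14.3% against 5.68%). Titin (Ttn) differed by 0.15 (adjusted p = 0.164). Of 38 calcium handling and ion channel genes the pacemaker channel gene Hcn4 rose (0.20, adjusted p = 0.0186), a share of 2.63% near the 2.55% of all genes. Without replicate 5 4 rose (10.5% against 5.68%) and 3 fell (7.89% against 8.30%). Among 30 integrin and focal adhesion genes Itga9 rose, at around 1 CPM (0.47, adjusted p = 0.0398), a share of 3.33%. Without replicate 5 2 rose (6.67% against 5.68%) and 3 fell (10% against 8.30%), near the shares of all genes. With all libraries none of 14 tested members of a list named stretch-gated channels passed. That list is broader than its name, and membership does not mean that a gene's product is gated by stretch. Without replicate 5, 3 members of the list fell, Trpm4, Tmem63b and Pkd1 (21.4% against 8.30% of all genes). Mitochondrially encoded genes (13), ribosomal protein genes (86) and replication-dependent histones (30) gave no call in edgeR with all libraries, while 2 ribosomal protein genes rose without replicate 5 and 6 histone genes rose in DESeq2. These groups moved with replicate 5: the histone list's median was 0.83 with it and 0.07 without, the mitochondrial one 0.03 and 0.19, and the ribosomal one -0.05 and 0.04.

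The largest fold changes among the named genes lay at low levels. Of all genes called with and without replicate 5, 17 rose and 1 fell more than 2-fold. The ranking by size left out genes under an average log2 CPM of 1 and those with clone names, so not all larger changes are named. Apol8, an apolipoprotein L gene, went from at most 2.50 CPM (median 1.37) to 1.99 to 5.89 CPM (median 2.73), by 0.97 (SE 0.211, adjusted p = 0.00683), and by 0.73 without replicate 5, its highest library. Cldn15, a tight junction claudin, went from 1.24 to 1.85 CPM to 2.21 to 3.43 CPM, by 0.86 (adjusted p = 0.000162), with no overlap. Slfn1, a schlafen, rose by 0.67 (adjusted p = 0.0233), and Spef2, a flagellar protein gene, by 0.62 (adjusted p = 0.00263). Tktl1, a transketolase-like gene singled out after its values were seen, stood at 0.164 to 0.400 CPM without and 0.681 to 1.43 CPM with stretch (1.62, adjusted p = 0.000113). At somewhat higher levels, Cfap43, another flagellar gene, rose by 0.43 (37.4 to 42.9 CPM against 51.3 to 61.5 CPM, adjusted p = 1.76e-06) and Cd34, a sialomucin of stem and endothelial cells, by 0.51 (14.0 to 17.5 CPM against 21.1 to 23.8 CPM, adjusted p = 2.5e-06). Among low falls, Jade2 (-0.45, adjusted p = 0.000432) and Medag (-0.46, adjusted p = 0.0128) did not overlap between groups, whereas Zdhhc24 (-0.42, adjusted p = 0.00683) and Tmie (-0.43, adjusted p = 0.0246) did.

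Positions were taken from GENCODE vM21 on GRCm38. Dusp8 lies on chromosome 7 at 142079490 to 142095843 (minus strand), Jun on chromosome 4 at 95049034 to 95052222 (minus), Ankrd1 on chromosome 19 at 36111961 to 36120099 (minus), Thbs1 on chromosome 2 at 118111876 to 118127133 (plus), Wnt9a on chromosome 11 at 59306928 to 59333552 (plus) and Txnip on chromosome 3 at 96557957 to 96561883 (plus). Genes on the opposite strand overlap Jun, Dusp8, Jund, Mat2a, Thbs1, Txnip, Nr1d1, Pim1, Plk1, Ccnl1, Cd34, Dusp1, Hk1, Gata5, Hand2, Nr2f2, Hoxa3 and Fbxo32, among others. The library kit marked strand, but whether the counting used it is not given in the sources used here, so values of these genes are uncertain to that extent.

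The response of control cells was set beside that of knockdown cells, which shares no library with it and in which 8.93% of all tested genes passed. Of the 348 genes that rose in control cells 95.7% had the same sign in knockdown cells, against 65.9% of all tested genes, and 62.6% were called there in the same direction, against 5.32% of all tested genes called up there. Of the 483 that fell, 88.8% had the same sign and 33.3% were called, against 3.61% of all genes called down, and the median log2 fold change was 0.18 in the knockdown for the rises and -0.10 for the falls. No riser and 1 faller, Adgrg1, was called in the opposite direction. A test of the difference between the responses (interaction) called 3 genes, 0.0208% of those tested: Fosb, Dkk3 and Pdzd2. None of them passed in control cells with all libraries, where Fosb differed by 0.17, Dkk3 by -0.04 and Pdzd2 by -0.07. Fosb stood at 3.57 to 9.59 CPM without and 5.59 to 8.87 CPM with stretch in control cells, and its difference between the responses was -1.86 (adjusted p = 0.0181). Without replicate 5 this test called 109 genes and DESeq2 called 122, and 1355 genes had an unadjusted p under 0.05 in edgeR.

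Sample codes hold a letter, a for replicates 1 to 3 and b for 4 to 6, whose meaning the labels do not give. Within letter a 737 genes passed and within letter b 186, in a model with 1 coefficient per group and letter. Without replicate 5, a library of letter b, these were 2172 and 134. The 831 genes called with and without replicate 5, which these same libraries chose, all had the same direction within each letter, replicate 5 being left out of b, with medians of 0.23 and 0.22 for the rises and -0.20 and -0.17 for the falls. No gene passed for the difference between the letters' responses, with 2454 genes at an unadjusted p under 0.05 (1083 without replicate 5). Levels did differ between the letters. In the same model letter a against b called 1 gene in the non-stretched and 19 in the stretched control libraries. Without replicate 5 these were 197 and 4.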

How the data were processed

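RNA-seq of 24 HL-1 libraries, 12 of them control, came from a stranded poly(A) kit, per the labels' protocols. The authors deposited estimated counts per gene for 20351 genes, with kallisto 0.44.0, GRCm38.p6, R 3.4.4 and DESeq2 1.18.1 listed in the submitters' processing notes. The authors also deposited a normalized signal, counts divided by factors that differ between genes, which served only as offsets in an alternative. Which annotation was used, and whether counting used strand, was not given in the sources used here. Estimated counts were rounded, filtered with edgeR 4.0.16 (minimum count 10, minimum total 15) to 14411 genes, scaled by TMM and fitted by the robust quasi-likelihood test with 1 coefficient per group over all 24 libraries (20 residual degrees of freedom). P-values were adjusted by Benjamini-Hochberg over all tested genes, with a threshold of 0.05. Levels are counts per 1 M counts (CPM) after TMM, and summed levels and medians are over those. No pair of replicates differed by as little as sampling noise (lowest chi-square per gene 2.85 over 30 pairs). The codes of the libraries hold a number that differs between the groups and is the same within each; its meaning is not given, and if it marks a batch, batch and group cannot be told apart.

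Genes were named by a rule: the 10 largest rises and falls among genes called with and without stretched replicate 5 at an average log2 CPM of at least 1, the 8 smallest p-values each way, and in each of 49 gene lists up to 4 called members with the smallest p plus fixed members. Those that bear on the account are printed, a few items are not reported here, and some other members of the lists, the markers, Tstd1, Tktl1, Adgrg1, Dkk3 and Pdzd2 were named after their values were seen. Members and lists were chosen with earlier results of these data known. Alternatives covered leaving out each control library, the libraries in the fit, RLE factors, DESeq2 1.42.0, limma-voom 3.58.1, filters, offsets and blocks. The knockdown libraries entered the fit and 1 comparison.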

Additional observations from a re-analysis of the deposited data

Results flagged for a closer look

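For 150 named genes the 6 libraries of each control group were examined for 1 library far from the other 5, by Dixon's criterion on the gap over the group's range. Chance alone marks about 1 in 20 groups, and 28 of 300 were marked, 21 of them for stretched replicate 5, the library with the lowest depth. It was the highest for Apol8 at 5.89 CPM (others 1.99 to 2.82), Sesn2 at 93.2 CPM (67.6 to 75), Srf at 206 CPM (182 to 190), Cfap43 at 61.5 CPM (51.3 to 55.1) and Zeb1 at 35 CPM (30.6 to 31.8), all of which rose. Among genes that fell it was the highest for Pim1 at 54.0 CPM (44.6 to 45.6), Pold1 at 120 CPM (98.5 to 102), Troap at 155 CPM (135 to 139), Slc16a3 at 69.3 CPM (59.1 to 62.8), Fbxo21 at 78.5 CPM (67.8 to 71.6) and Tnfaip2 at 8.87 CPM (6.54 to 7.2). It was also the highest for Gata4 at 373 CPM (316 to 333), Pkd1 at 229 CPM (154 to 166) and Ttn at 380 CPM (295 to 322), which did not pass.

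Replicate 5 was the lowest stretched library for Dnajb4 at 51.5 CPM (others 67.1 to 71.1), Vcl at 567 CPM (628 to 641), Lima1 at 137 CPM (148 to 153) and Mcl1 at 219 CPM (240 to 246). The same held for the muscle genes Tnnt2 at 968 CPM (1250 to 1380), Myl7 at 151 CPM (217 to 239) and Acta2 at 2200 CPM (2420 to 2520). Other libraries stood apart in 7 cases. Non-stretched replicate 1 was highest for Apol8 at 2.50 CPM and Tgfb1i1 at 37.1 CPM and lowest for Gypc at 27.5 CPM. Non-stretched replicate 3 was highest for Cldn15 at 1.85 CPM and Tstd1 at 0.522 CPM, non-stretched replicate 5 lowest for Hmox1 at 90.5 CPM, and stretched replicate 2 lowest for Tgif2 at 23.5 CPM.

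Fosb, Pdzd2 and Dkk3 differed between control and knockdown cells in their response to stretch, by -1.86, -0.38 and -0.31 on the log2 scale (edgeR interaction, adjusted p = 0.0181, 0.0222 and 0.0301).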

How the results depend on the processing

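Of the 122 called genes named here, 27 kept their call under all 28 alternatives, Tktl1 under the 27 in which it was tested, and 75 did so where no single code letter was used, and none reversed. Leaving out 1 control library gave 568 to 2023 calls, 258 to 822 rises and 306 to 1201 falls; the highest values, and 109 calls of the interaction, came without stretched replicate 5, and the cause was not tested. The calls of Egr4, Edem1 and Uqcrc1 were lost without it. With only control libraries in the fit 377 genes passed (222 up, 155 down), and without replicate 5 as well 2567 (1178 up, 1389 down). No filter gave 243 falls, the authors' normalized values as offsets 566 calls and 276 falls, and GC and length offsets 1298 calls and 887 falls; the cause was not tested. Rises were 60.7% of calls with no filter, 57.9% with a minimum count of 50 and 42.9% in the analysis reported. DESeq2 called 122 genes for the interaction. Replicate numbers did not pair the libraries (correlations of -0.05 to 0.07, 0 of 6 pairs over 0.1, and 1 library correlated best with its own number): a replicate block gave 946 calls and 9 for the interaction. Chosen after seeing the data, the block without replicate 5 gave 2032 calls (806 up, 1226 down) and 228 for the interaction; code letter b alone gave 186 (131 up, 55 down), letter a without replicate 5 2172 (1023 up, 1149 down) and letter b without it 134 (91 up, 43 down), with fewer libraries in each letter. Directions reversed only for uncalled values: Myl7 (-0.04) was 0.04 without replicate 5 (-0.07 to 0.04 over the libraries left out), 0.05 with only control libraries besides, 0.04 with the block, 0.06 within letter a, with or without it, and 0.03 within letter b without it. Tnnt2 (0.02) was -0.01 without stretched replicate 4 or non-stretched replicate 2 (-0.01 to 0.09 over the libraries left out) and -0.08 within letter b with all libraries, where Pdzd2 was 0.01, Pkd1 0.10, Tmem63b 0.02 and Trpm4 0.04. Depth limits genes under about 1 CPM most, such as Tstd1, Itgam and Nppa.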
